A study of Mus musculus with 46 samples.

Results

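Autophagy encloses cytoplasmic material in a double membrane, the autophagosome, and delivers it to the lysosome for degradation. mTORC1, the kinase complex that senses nutrients, holds the pathway back in growing cells by phosphorylating the initiating kinase ULK1. When the kinase is inhibited, membrane formation starts, small proteins of the ATG8 family are coupled to the membrane lipid phosphatidylethanolamine, and receptors that bind both ATG8 proteins and ubiquitin bring in cargo and are degraded with it. The genes described here are 10 of the 9857 symbols listed once each for DMSO as well as for torin 1 libraries, and they were chosen by symbol. The choice was made with earlier results of these data known, so their counts beside all genes are not an independent test. They are the receptors Sqstm1 (p62) and Nbr1, the ATG8 family genes Map1lc3b, Gabarapl1 and Gabarapl2, the initiating kinase Ulk1, the conjugation genes Atg5 and Atg7, Becn1, a subunit of the lipid kinase complex that marks the forming membrane, and Wipi2, which reads that mark. All 10 had enough counts to be tested in every comparison.

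EPP2 is a murine pancreatic cancer cell line, and the cells carried Cas9 under a doxycycline-inducible promoter. In Ctu1 iKO cells, Cas9 was switched on with 300 ng/ml doxycycline for 4 days in the presence of guide RNAs against Ctu1, a subunit of the enzyme that thiolates the wobble uridine of tRNAs reading AAA, CAA and GAA codons (VAA codons). Control cells are called wild type in the labels, and the study's methods name guides against non-coding regions or omission of doxycycline as controls without assigning either to these libraries, so that an effect of doxycycline or Cas9 and an effect of Ctu1 loss cannot be told apart here. Cells of both genotypes received DMSO or 300 nM torin 1, an inhibitor of both mTOR complexes, for 2 h. Ribosome footprints and mRNA were sequenced from the same 23 samples, 6 of control with DMSO, 6 of control with torin 1, 5 of Ctu1 iKO with DMSO and 6 of Ctu1 iKO with torin 1. The study's methods name a pair of biologically independent replicates for this experiment and a legend names as many experiments as there are footprint libraries. Here n counts libraries, and each SE and p measures a spread between libraries that may be technical in part. Footprints count ribosomes on an mRNA, and their ratio to the mRNA is called translational efficiency.

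Footprint libraries held between 4602092 and 52907878 counts and mRNA libraries between 129881946 and 325494304, and the shallowest was the footprint library of Ctu1 iKO with torin 1, replicate 1. Each library was compared with the mean profile of replicates 1 to 3 of the 4 groups of its assay, leaving out its own replicate number. All 11 footprint libraries of replicates 4 to 6 were nearest to their own group, whereas 6 of 11 mRNA libraries of replicates 4 to 6 were nearest to another group. Those 6 were control with torin 1, replicates 5 and 6, nearest to Ctu1 iKO with DMSO, Ctu1 iKO with DMSO, replicates 4 and 5, nearest to Ctu1 iKO with torin 1, and Ctu1 iKO with torin 1, replicates 5 and 6, nearest to control with DMSO. The definition of this set of genes limits mRNA to replicates 1 to 3, so the 5 later mRNA libraries nearest to their own group were left out too. No library was moved to another group. Of replicates 1 to 3, 1 of 12 libraries in each assay was also nearest to another group. In both assays it was Ctu1 iKO with torin 1, replicate 3, which was kept in the comparisons. It was about as near to control with torin 1 as to its own group (0.572 and 0.580 for footprints, 0.323 and 0.324 for mRNA, as root mean square differences of log2(CPM + 1)). Ctu1 itself had 2.53 ± 0.65 footprint counts per 1000000 (CPM; SD, n = 6) in control and 1.79 ± 0.42 in Ctu1 iKO (SD, n = 5) with DMSO, a log2 change of -0.54 that did not pass the test (adjusted p = 0.353), and its mRNA was at 4.62 ± 0.12 and 4.63 ± 0.30 CPM (SD, n = 3). Gene counts do not show whether reads lie inside the edited stretch and therefore do not check the knockout. Of the epithelial markers, Krt8 (135.7 to 220.7 footprint CPM) and Krt18 (105.5 to 155.4) were high in every DMSO library, Krt19 was at 8.36 to 20.1 CPM, Epcam was at most at 2.89 CPM, and Krt7 and Cdh1 were not listed. Of 5 fibroblast markers, Col1a1 was at 132.2 to 445.3 CPM, Pdgfra at 6.82 to 20.2, Lum at 1.72 to 5.93 and Dcn at 0.633 to 3.89, and Col1a2 was not listed. None of the 3 endothelial and 4 acinar markers was listed, and 1 of 4 immune markers (Cd68) was.

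Because Ctu1 acts on tRNAs that read VAA codons, the stretch of 10 codons with the most VAA codons is shown for 5 of the genes on which the results turn, with VAA codons in capitals, read 5′ to 3′ from the coding sequence of 1 GENCODE M21 transcript per gene (GRCm38).
Nbr1, codons 729 to 738: gagGAAgaggagGAAgtcCAAgatGAAGAA
Map1lc3b, codons 9 to 18: cagcgccggagctttGAACAAagagtgGAA
Gabarapl1, codons 15 to 24: AAAaagGAAggtGAAaagattaggaagAAA
Ulk1, codons 56 to 65: tccCAAacactgctgggaaagGAAatcAAA
Atg5, codons 138 to 147: AAAagtCAAgtgatcaacGAAatgcagAAA
Over the whole coding sequence, VAA codons made up 9.45% of Atg5, 8.60% of Nbr1, 6.84% of Gabarapl1 and of Gabarapl2, 5.58% of Becn1, 5.43% of Sqstm1, 4.80% of Map1lc3b, 4.24% of Wipi2, 3.87% of Atg7 and 3.04% of Ulk1. The median over 10160 genes was 6.06% (quartiles 3.96% and 8.64%), and 4 of the 10 genes lay above it. Map1lc3b has no AAA codon among its 125 codons, and all its lysines are written AAG.

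The genes lie on 5 mouse chromosomes (GRCm38). Sqstm1 (chr11:50199366-50210827, minus strand), Nbr1 (chr11:101552149-101581951, plus) and Becn1 (chr11:101285952-101302286, minus) share chromosome 11. Map1lc3b (chr8:121590361-121598760, plus) and Gabarapl2 (chr8:111940703-111953612, plus) lie on chromosome 8, Gabarapl1 (chr6:129533160-129542346, plus) and Atg7 (chr6:114643097-114860614, plus) on chromosome 6, Ulk1 (chr5:110784488-110810097, minus) and Wipi2 (chr5:142627698-142670588, plus) on chromosome 5, and Atg5 (chr10:44268358-44364291, plus) on chromosome 10. The ATG8 genes are paralogs of each other. For footprints, the study's methods name the gene counts of STAR, which leave out reads that fit more than 1 place, and for mRNA the counting rule is not given in the sources used here. Values of the ATG8 genes may therefore be less certain than those of the other genes, and how many of their reads were left out was not measured.

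In control cells with DMSO, the footprint level per length of coding sequence was highest for a receptor and 2 ATG8 genes. Sqstm1 stood at 262.8 ± 22.2 CPM per kb (SD, n = 6), Map1lc3b at 227.7 ± 41.8 and Gabarapl1 at 169.0 ± 18.9. Below them came Gabarapl2 (64.9 ± 5.7), Nbr1 (56.7 ± 8.2), Becn1 (31.6 ± 4.6), Wipi2 (29.5 ± 1.3), Atg7 (27.4 ± 3.7), Atg5 (12.2 ± 1.8) and Ulk1 (5.01 ± 0.78). Neighbours in this order overlapped between libraries at Sqstm1 and Map1lc3b, Map1lc3b and Gabarapl1, Gabarapl2 and Nbr1, Becn1 and Wipi2, and Wipi2 and Atg7, and did not overlap at the other steps. The mRNA level per length of transcript was again highest for Sqstm1 (236.7 ± 12.1 CPM per kb, n = 3) and lowest for Atg5 (6.60 ± 0.42) and Ulk1 (7.62 ± 0.17).

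The first question was how inhibition of mTOR changed ribosome footprints on the pathway's mRNAs in control cells. A receptor, an ATG8 gene and the initiating kinase gained footprints. Of the 10 genes, 3 were called higher and 0 lower at an adjusted p under 0.05 (edgeR quasi-likelihood test over 9856 genes, Benjamini-Hochberg), whereas 2.91% of all genes were called higher and 4.33% lower. The median log2 change was 0.28 over the 10 genes and 0.015 over all genes tested. Values are shares of a library, so that a change in footprints or mRNA per cell that touches all genes alike is not seen, and fewer cells and less RNA per cell cannot be told apart.

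**Figure D1:**
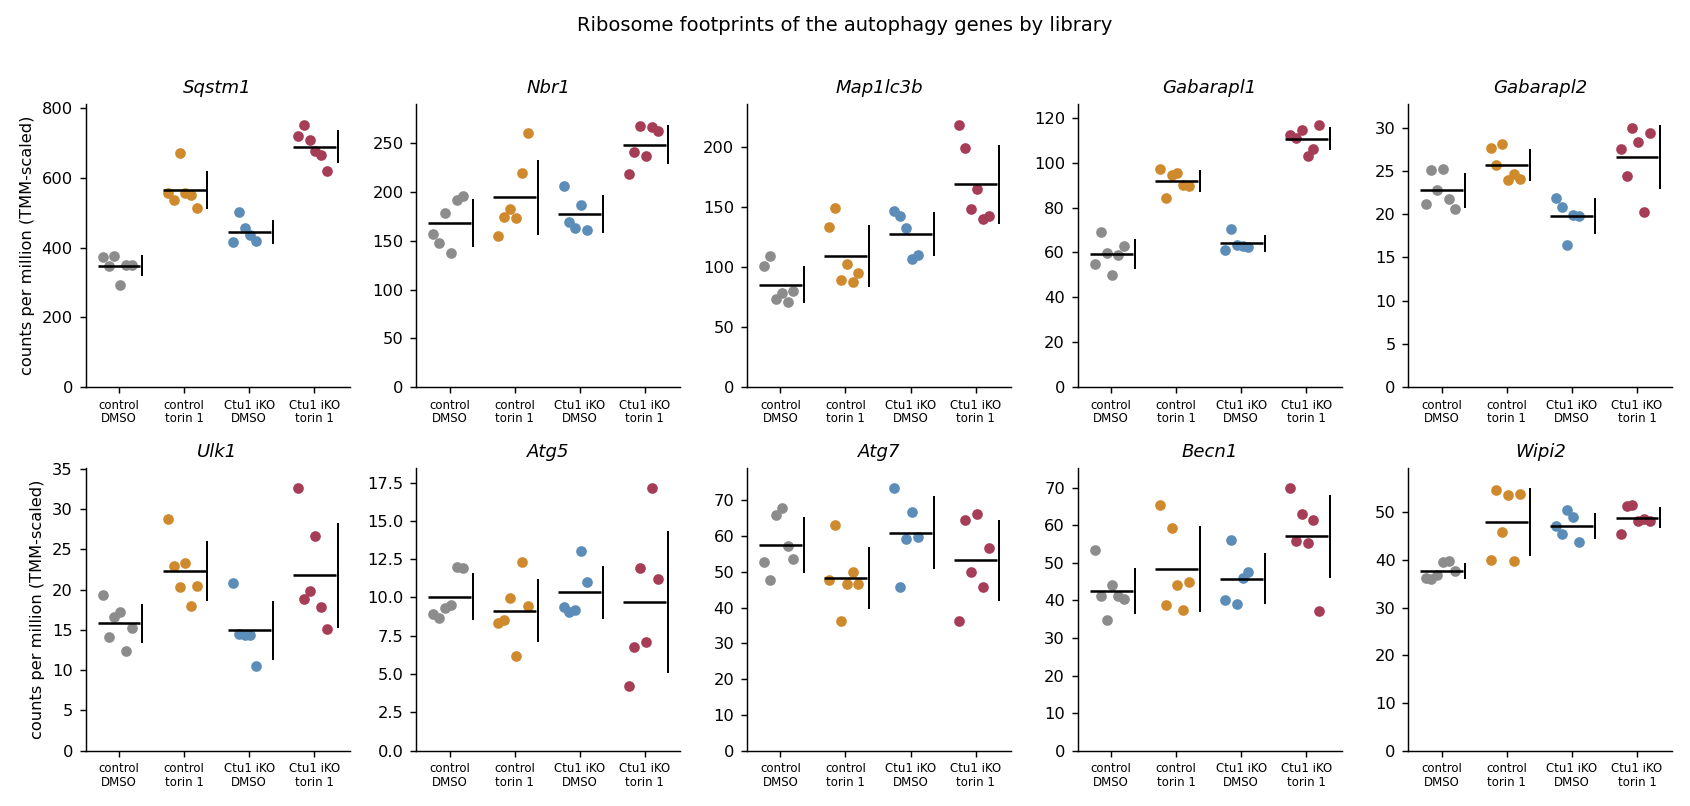
Ribosome footprints of the 10 autophagy genes in TMM-scaled CPM (y axis, starting at 0) in each of the 23 libraries (points, ordered by replicate number) by group. Horizontal lines give group means and vertical lines 1 SD; Sqstm1 and Gabarapl1 stand higher with torin 1 than with DMSO in both genotypes without overlap, while Becn1, Atg5 and Atg7 overlap.

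Sqstm1 footprints ranged from 293.6 to 375.8 CPM with DMSO (median 350.4, n = 6) and from 514.4 to 672.0 with torin 1 (median 554.2, n = 6). The groups did not overlap, which held for torin 1 above DMSO in 2.01% of all genes, and the log2 change was 0.70 (SE 0.09, adjusted p = 7.15e-05), a 1.62-fold rise. Gabarapl1, an ATG8 protein of the GABARAP branch, ranged from 49.95 to 69.3 CPM with DMSO (median 59.5) and from 84.4 to 97.3 with torin 1 (median 92.3). Here too every torin 1 library lay above every DMSO library, and the log2 change was 0.63 (SE 0.09, adjusted p = 0.000313). Ulk1 ranged from 12.3 to 19.3 CPM with DMSO (median 15.9) and from 18.0 to 28.8 with torin 1 (median 21.7). The lowest torin 1 library lay within the DMSO range, and the log2 change was 0.50 (SE 0.14, adjusted p = 0.037).

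The remaining genes did not pass. Wipi2 had a log2 change of 0.35 (SE 0.10, adjusted p = 0.0576), with 36.0 to 39.7 CPM in the DMSO libraries and 39.8 to 54.7 in the torin 1 libraries, ranges that touch without overlapping. Map1lc3b had 0.36 (SE 0.15, adjusted p = 0.194), Nbr1 0.21, Becn1 0.18, Gabarapl2 0.17, Atg5 -0.14 and Atg7 -0.25 (adjusted p between 0.284 and 0.719). Map1lc3b footprints were higher in replicates 1 and 2 (100.6 and 109.2 CPM) than in replicates 3 to 6 (71.1 to 79.7) of control with DMSO, and replicates 1 and 2 were above each of the later ones in all 4 groups. Same-numbered libraries of control with DMSO and torin 1 deviated together, and with the replicate number as a block the count rose to 6 called higher, since Map1lc3b (log2 change 0.35, adjusted p = 0.00127), Wipi2 (0.33, adjusted p = 0.024) and Nbr1 (0.20, adjusted p = 0.0462) also passed. The share of all genes called higher rose to 9.88% in that fit. Within replicates 1 and 2, the changes of Sqstm1, Gabarapl1 and Ulk1 were 0.61, 0.56 and 0.63, and within replicates 3 to 6 they were 0.74, 0.67 and 0.42. None of the 3 was called within replicates 1 and 2 by edgeR (adjusted p = 0.0736, 0.315 and 0.412). Within replicates 3 to 6, Sqstm1 and Gabarapl1 were called (adjusted p = 0.0014 and 0.00129) and Ulk1 was not (0.101).

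In Ctu1 iKO cells, torin 1 was followed by higher footprints on Sqstm1, Gabarapl1 and the second receptor gene, Nbr1. Again 3 of 10 genes were called higher and 0 lower, against 3.48% of all genes called higher and 4.52% called lower. The median log2 change was 0.41 over the 10 genes and 0.018 over all genes.

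Sqstm1 stood at 416.5, 501.3, 457.0, 435.7 and 419.1 CPM in the 5 DMSO libraries and ranged from 619.2 to 752.8 with torin 1 (median 692.5, n = 6), with no overlap, as 3.47% of all genes had in this direction. Its log2 change was 0.62 (SE 0.08, adjusted p = 0.000228). Gabarapl1 was at 60.9, 70.4, 63.5, 63.1 and 62.3 CPM with DMSO and at 103.2 to 116.9 with torin 1 (median 111.7), a log2 change of 0.78 (SE 0.09, adjusted p = 2.65e-05) that was the largest among the 10 genes. Nbr1, which binds ubiquitin and ATG8 proteins as Sqstm1 does, was at 206.5, 169.0, 163.6, 186.9 and 160.6 CPM with DMSO and at 218.1 to 268.1 with torin 1 (median 251.5), again without overlap (log2 change 0.48, SE 0.10, adjusted p = 0.00807). Its change was 0.28 within replicates 1 and 2 and 0.59 within replicates 3 to 6. The calls of Sqstm1, Gabarapl1 and Nbr1 held in each of the 11 fits that left out 1 library.

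Ulk1 had about the same change as in control (0.53) with a wider error (SE 0.22, adjusted p = 0.174), and its libraries ranged from 10.6 to 20.9 CPM with DMSO and from 15.1 to 32.6 with torin 1. The highest Ulk1 value was that of the shallowest library, and without it the change was 0.39 (adjusted p = 0.255). Without Ctu1 iKO replicate 1 with DMSO it was 0.68 (adjusted p = 0.0866), and none of the 11 fits that left out 1 library called Ulk1. Gabarapl2 had a log2 change of 0.42 (adjusted p = 0.0806), Map1lc3b 0.40 (0.117), Becn1 0.31 (0.267), Wipi2 0.05 (0.834), Atg5 -0.08 (0.916) and Atg7 -0.20 (0.531). Gabarapl2 and Map1lc3b were each called in 3 of 8 alternatives. The fits that called them called 897 to 1368 of all genes, beside 788 in the main fit. Whether torin 1 acted differently in the 2 genotypes was tested as an interaction over all footprint libraries. None of the 10 genes passed here or in any of 8 alternatives, beside 0.639% of all genes called. An unadjusted p under 0.05 was found for 1 of the 10 (Wipi2, -0.29, SE 0.13, adjusted p = 0.957 by edgeR), beside 460 of 9857 genes. The interaction was 0.28 (SE 0.17) for Nbr1, -0.07 (SE 0.11) for Sqstm1, 0.16 (SE 0.11) for Gabarapl1 and 0.04 (SE 0.26) for Ulk1.

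At the mRNA level in control cells, torin 1 was followed by higher levels of both receptors and of 2 ATG8 genes, and by a lower level of Atg5, whose product forms part of the enzyme that couples ATG8 proteins to lipid. Of the 10 genes, 4 were called higher, beside 5.69% of all genes, and 1 lower, beside 7.4% of all genes (edgeR, replicates 1 to 3). The median log2 change was 0.14 over the 10 genes and 0.0007 over all genes.

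**Figure D2:**
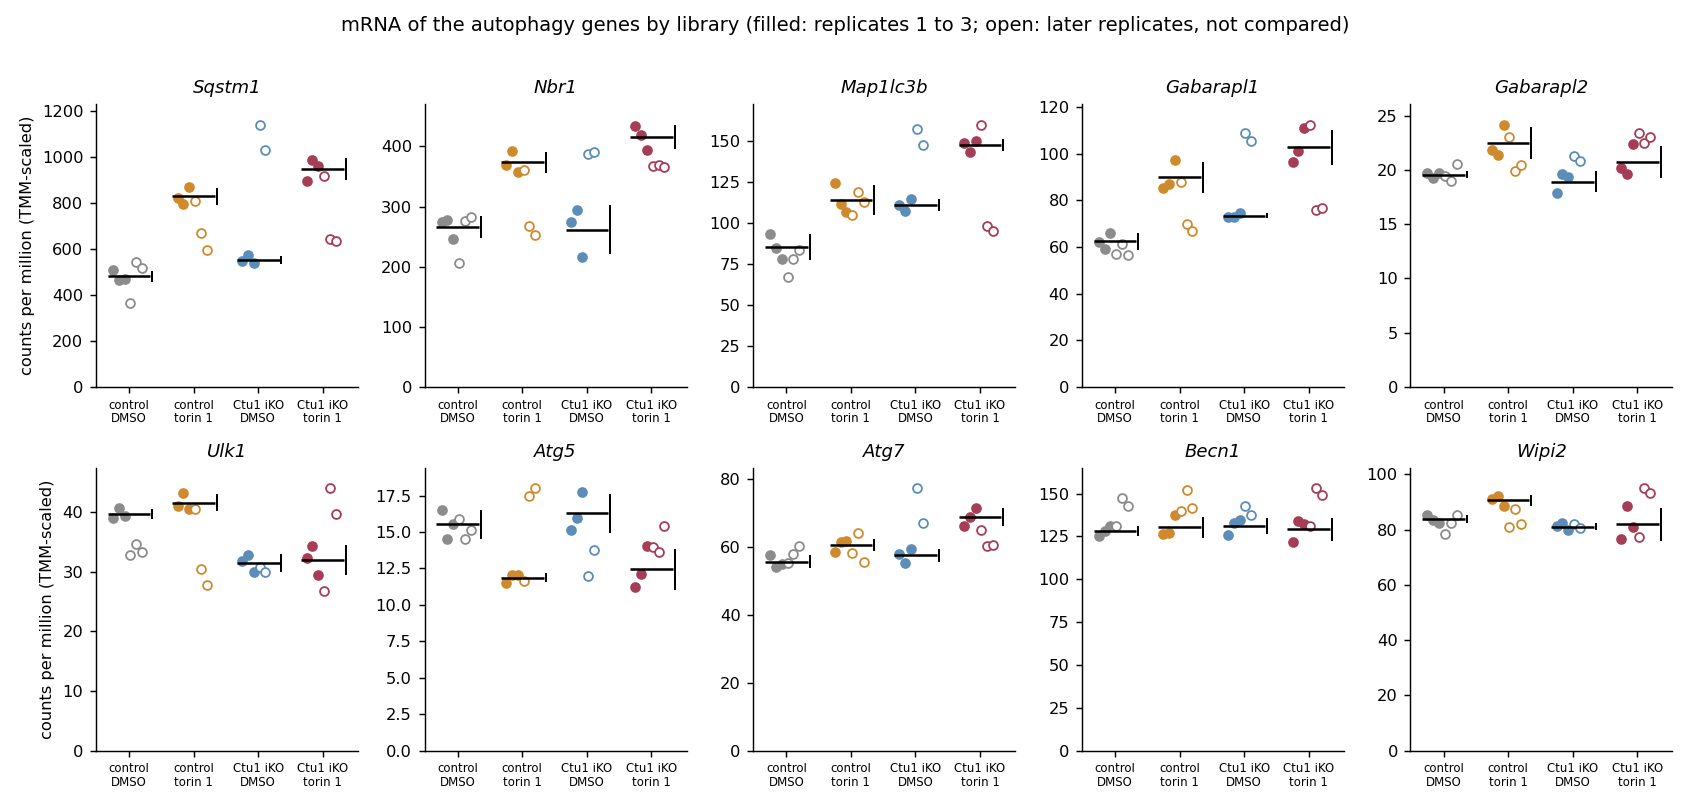
mRNA of the 10 autophagy genes in TMM-scaled CPM (y axis, starting at 0) by group. Filled points are replicates 1 to 3, which were compared, with their mean (horizontal line) and 1 SD (vertical line), and open points are later replicates. Sqstm1, Nbr1, Map1lc3b and Gabarapl1 are higher with torin 1 in the filled points. In these genes, the open points of Ctu1 iKO with DMSO stand above the filled points of the same group.

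Sqstm1 mRNA was at 510.4, 466.9 and 469.0 CPM with DMSO and at 823.7, 797.0 and 870.2 with torin 1, with no overlap, which with 3 libraries a group held in this direction for 16.9% of all genes. The log2 change was 0.77 (SE 0.07, adjusted p = 0.00128), which is close to the change of its footprints. Nbr1 went from 273.8, 278.4 and 245.3 CPM to 369.8, 392.7 and 357.4 (log2 change 0.47, SE 0.07, adjusted p = 0.00813). Map1lc3b, the gene of the most used autophagosome marker LC3B, went from 93.5, 84.8 and 78.2 CPM to 124.5, 111.6 and 106.6 (log2 change 0.40, SE 0.09, adjusted p = 0.0276). Gabarapl1 went from 62.3, 58.9 and 66.1 CPM to 85.1, 87.0 and 97.1 (log2 change 0.51, SE 0.08, adjusted p = 0.00796).

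Atg5 was the only one of the 10 genes to fall. It went from 16.5, 14.6 and 15.5 CPM to 11.5, 12.1 and 12.1, a log2 change of -0.40 (SE 0.08, adjusted p = 0.0185), without overlap, as 16.2% of all genes in this direction. Ulk1 mRNA was at 39.1, 40.7 and 39.3 CPM with DMSO and at 41.0, 43.2 and 40.5 with torin 1, and these values overlapped (log2 change 0.05, SE 0.06, adjusted p = 0.662). Gabarapl2 (0.18), Atg7 (0.10), Wipi2 (0.09) and Becn1 (0.01) did not pass. Same-numbered mRNA libraries deviated together in all 4 comparisons, and with the replicate number as a block Gabarapl2 also passed (0.18, adjusted p = 0.0233), which made 5 higher, beside 20.7% of all genes in that fit, and 1 lower, beside 23%. The calls of Map1lc3b and Atg5 each held in 2 of 6 fits that left out 1 library, and with all replicates as labelled Nbr1 (0.35, adjusted p = 0.0619) and Atg5 (-0.16, adjusted p = 0.459) were not called.

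In Ctu1 iKO cells, the same 4 genes were called higher at the mRNA level and 0 lower, beside 3.73% of all genes higher and 4.52% lower. Sqstm1 went from 549.3, 573.7 and 538.2 CPM to 894.9, 988.9 and 960.7 (log2 change 0.78, SE 0.08, adjusted p = 0.00398). Nbr1 went from 275.0, 293.5 and 215.7 CPM to 434.0, 418.6 and 393.4 (0.67, SE 0.13, adjusted p = 0.0213), and the third DMSO library stood lowest. Map1lc3b went from 111.0, 107.4 and 114.6 CPM to 149.2, 143.5 and 150.3 (0.41, SE 0.07, adjusted p = 0.0184). Gabarapl1 went from 72.7, 72.8 and 74.5 CPM to 96.4, 101.1 and 111.0 (0.49, SE 0.08, adjusted p = 0.0156).

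None of these 4 genes overlapped between the treatments, which held for 14.2% of all genes with torin 1 above DMSO. Atg5 had a log2 change of -0.39 (adjusted p = 0.0941), Atg7 0.26 (adjusted p = 0.0875), Gabarapl2 0.13, Ulk1 0.02, Wipi2 0.01 and Becn1 -0.02. In the fit with the replicate block, Atg5 (-0.39, adjusted p = 0.00422) and Atg7 (0.26, adjusted p = 0.0135) also passed. That fit called 18.1% of all genes lower and 17.1% higher. This comparison rests on the choice of libraries: with all replicates as labelled, no gene of the whole table was called by edgeR, and the changes of Sqstm1, Nbr1, Map1lc3b and Gabarapl1 were 0.13, 0.32, 0.06 and 0.14. Within replicates 1 to 3, only the call of Sqstm1 held in all 6 fits without 1 library, and those of the other 3 genes held in 2 of 6. No gene passed the interaction test of mRNA by edgeR (0 of 9616 genes, 140 of them with an unadjusted p under 0.05 and none of the 10).

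**Figure D3:**
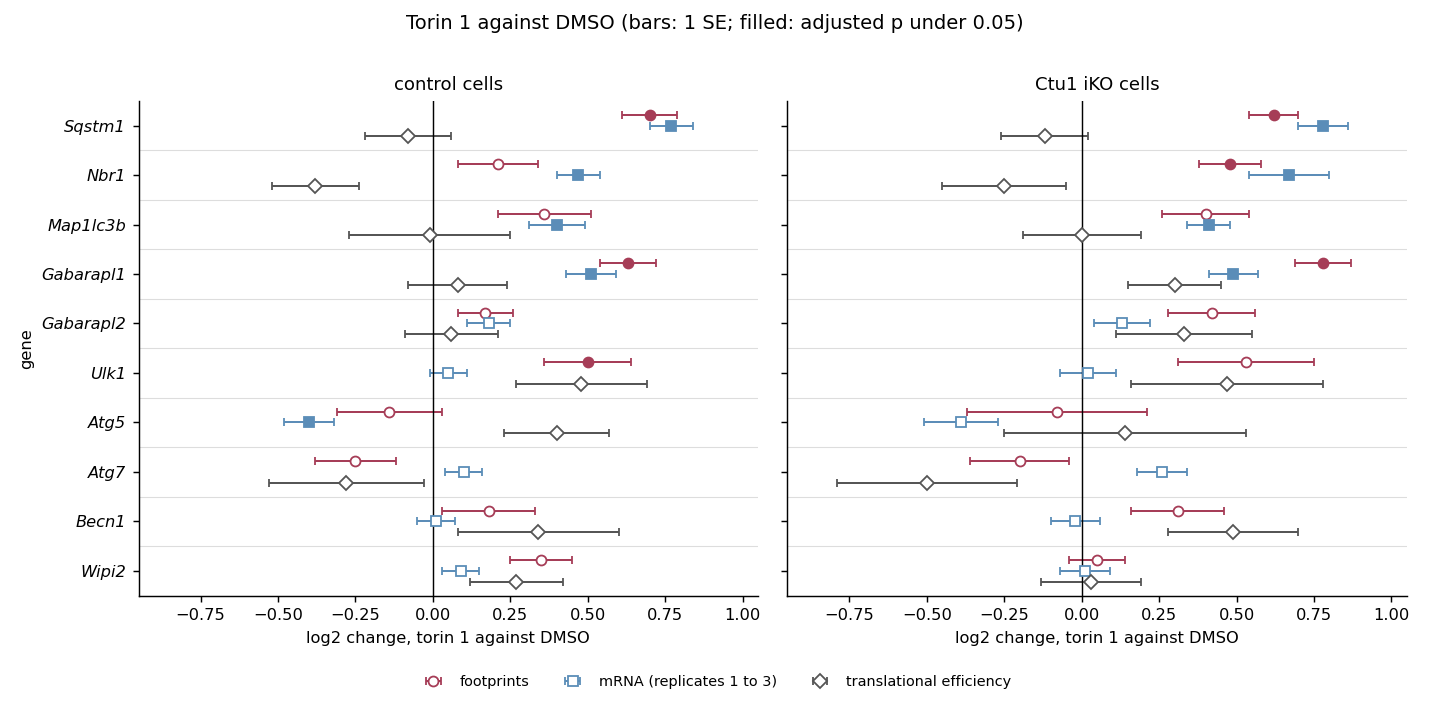
Log2 change with torin 1 against DMSO (x axis) of the 10 genes (y axis) in control (left) and Ctu1 iKO cells (right) for footprints, mRNA and translational efficiency, with 1 SE; filled symbols passed an adjusted p of 0.05. Footprints and mRNA of Sqstm1 lie at 0.70 and 0.77 in control and at 0.62 and 0.78 in Ctu1 iKO, those of Gabarapl1 at 0.63 and 0.51 and at 0.78 and 0.49, Ulk1 footprints lie at 0.50 and 0.53 beside mRNA at 0.05 and 0.02, and no change in translational efficiency passed.

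Translational efficiency was tested as the difference between the footprint and the mRNA change in replicates 1 to 3 of both assays. None of the 10 genes passed with torin 1 in either genotype by edgeR or in any of 6 alternatives, beside 1.14% of all genes called in control and 1.67% in Ctu1 iKO. In control, 3 of the 10 had an unadjusted p under 0.05, beside 651 of 9848 genes. In Ctu1 iKO, 1 of the 10 did, beside 891 of 9845 genes. For Ulk1, the log2 ratio of footprints to mRNA was -1.02, -1.52 and -1.25 with DMSO and -0.51, -0.91 and -0.99 with torin 1 in control, a difference of 0.48 (SE 0.21, unadjusted p = 0.0376, adjusted p = 0.718). In Ctu1 iKO the difference was 0.47 (SE 0.31, adjusted p = 0.772). For Nbr1, the ratio was -0.80, -0.92 and -0.46 with DMSO and -1.25, -1.17 and -0.96 with torin 1 in control, a difference of -0.38 (SE 0.14, unadjusted p = 0.0182, adjusted p = 0.526), and in Ctu1 iKO -0.25 (SE 0.20). The third gene in control was Atg5 (0.40, SE 0.17, unadjusted p = 0.0403, adjusted p = 0.72), and the one gene in Ctu1 iKO was Becn1 (0.49, SE 0.21, unadjusted p = 0.0379, adjusted p = 0.517). Gabarapl1 had 0.08 (SE 0.16) in control and 0.30 (SE 0.15) in Ctu1 iKO, and Sqstm1 -0.08 (SE 0.14) and -0.12 (SE 0.14).

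The second question was whether loss of Ctu1 changed the expression of these genes. With DMSO, footprints of Map1lc3b and Sqstm1 were called higher in Ctu1 iKO than in control and those of 0 genes lower, beside 1.63% of all genes called higher and 1.04% called lower. Map1lc3b was at 147.0, 142.5, 132.7, 106.6 and 110.3 CPM in Ctu1 iKO and at 71.1 to 109.2 (median 78.9, n = 6) in control. Only 1 of 5 Ctu1 iKO libraries lay within the control range, and the log2 change was 0.58 (SE 0.13, adjusted p = 0.0331). For Sqstm1, the Ctu1 iKO libraries (416.5 to 501.3 CPM) all lay above the control libraries (293.6 to 375.8 CPM), as was the case for 2.34% of all genes, a log2 change of 0.36 (SE 0.08, adjusted p = 0.0374).

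Wipi2 was at 47.2, 45.4, 50.5, 49.0 and 43.7 CPM in Ctu1 iKO and at 36.0 to 39.7 in control, which did not overlap either, but missed the threshold (log2 change 0.33, SE 0.08, adjusted p = 0.0555). It was called in 3 of 8 alternatives, by DESeq2 (adjusted p = 0.00383), with library totals alone (0.0368) and with a term for replicates 1 and 2 against later ones (0.0198). Those fits called 700, 298 and 737 of all genes, beside 277 in the main fit. The other 7 genes had log2 changes between -0.20 (Gabarapl2) and 0.11 (Becn1 and Gabarapl1). Both calls were close to the threshold. That of Map1lc3b held in 4 and that of Sqstm1 in 2 of the 11 fits that left out 1 library, with changes between 0.53 and 0.67 for Map1lc3b and between 0.31 and 0.38 for Sqstm1. Within replicates 1 and 2 the change was 0.47 for Map1lc3b and 0.35 for Sqstm1, and within replicates 3 to 6 it was 0.63 and 0.36.

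With torin 1, Map1lc3b was the only one of the 10 genes whose footprints were called higher in Ctu1 iKO than in control, beside 2.23% of all genes, and 0 were lower, beside 2.6%. It ranged from 140.3 to 218.7 CPM in Ctu1 iKO (median 156.9, n = 6) and from 87.9 to 149.4 in control (median 98.9, n = 6), and 3 of 6 Ctu1 iKO libraries lay above the control range. The log2 change was 0.62 (SE 0.16, adjusted p = 0.0356), without the shallowest library it was 0.54 (adjusted p = 0.0525), and without Ctu1 iKO replicate 3 it was 0.65 (adjusted p = 0.0495). Nbr1 (0.35, adjusted p = 0.127), Sqstm1 (0.29, adjusted p = 0.0769) and Gabarapl1 (0.27, adjusted p = 0.0676) did not pass, although all 6 Gabarapl1 libraries of Ctu1 iKO (103.2 to 116.9 CPM) lay above those of control (84.4 to 97.3 CPM), which held for 1.8% of all genes. Same-numbered libraries of both genotypes deviated together with torin 1, and with the replicate number as a block 4 genes were called higher: Map1lc3b (0.63, adjusted p = 0.000154), Nbr1 (0.37, adjusted p = 0.0106), Sqstm1 (0.29, adjusted p = 0.00969) and Gabarapl1 (0.27, adjusted p = 0.0219). That fit called 7.02% of all genes higher. The genotype comparisons use the same libraries as the torin 1 comparisons and are not independent of them.

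**Figure D4:**
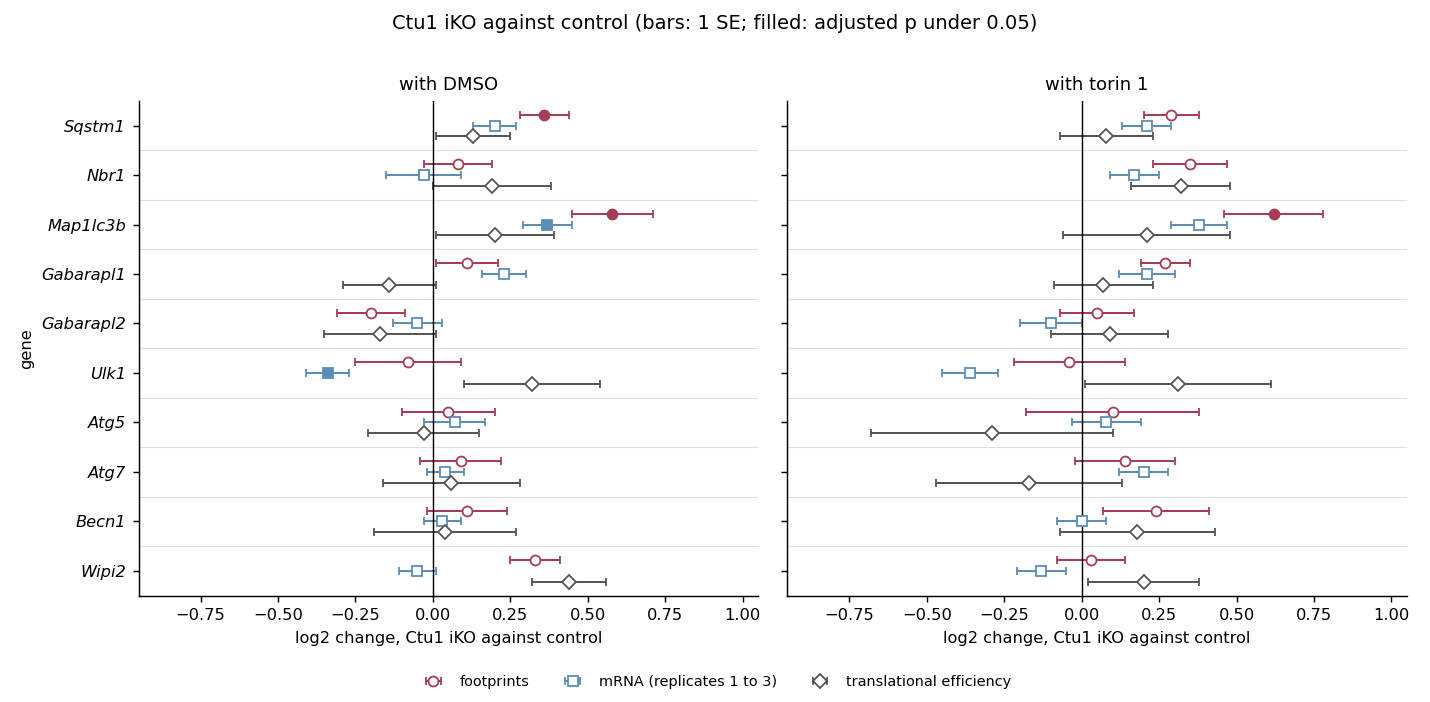
Log2 change in Ctu1 iKO against control (x axis) of the 10 genes (y axis) with DMSO (left) and torin 1 (right) for footprints, mRNA and translational efficiency, with 1 SE; filled symbols passed an adjusted p of 0.05. Map1lc3b footprints lie at 0.58 and 0.62, and Ulk1 mRNA lies at -0.34 and -0.36, of which the first passed.

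At the mRNA level with DMSO, 1 of the 10 genes was called higher in Ctu1 iKO (Map1lc3b), beside 3.32% of all genes, and 1 lower (Ulk1), beside 1.8% of all genes. Map1lc3b was at 111.0, 107.4 and 114.6 CPM in Ctu1 iKO against 93.5, 84.8 and 78.2 in control (log2 change 0.37, SE 0.08, adjusted p = 0.041). Ulk1 was at 31.8, 32.8 and 29.9 CPM in Ctu1 iKO against 39.1, 40.7 and 39.3 in control (log2 change -0.34, SE 0.07, adjusted p = 0.0349). Neither pair of groups overlapped, as for 16.6% of all genes with Ctu1 iKO higher and 14.9% with Ctu1 iKO lower, but neither call held in any of the 6 fits that left out 1 library. With all replicates as labelled, 4 were called, Map1lc3b (0.66, adjusted p = 0.00214), Sqstm1 (0.68, adjusted p = 0.0273) and Gabarapl1 (0.53, adjusted p = 0.00782) higher and Ulk1 (-0.24, adjusted p = 0.0244) lower. That fit includes Ctu1 iKO replicates 4 and 5 with DMSO, whose profiles were nearest to Ctu1 iKO with torin 1. Calls over all genes were 518 in the main fit and 473 to 2831 over the alternatives. Ulk1 footprints had a log2 change of -0.08 in this comparison (SE 0.17, adjusted p = 0.849), and the difference between footprints and mRNA was 0.32 (SE 0.22, adjusted p = 1.0 by edgeR). With the replicate number as a block, Gabarapl1 (0.23, adjusted p = 0.0152) and Sqstm1 (0.20, adjusted p = 0.0294) were called higher as well. This made 3 higher and 1 lower, beside 14.3% and 13.6% of all genes in that fit.

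With torin 1, no mRNA of the 10 was called between the genotypes by edgeR, beside 1.31% of all genes called. An unadjusted p under 0.05 was found for 4 of the 10, beside 1932 of 9650 genes. Map1lc3b had a log2 change of 0.38 (SE 0.09, adjusted p = 0.0821) and Ulk1 of -0.36 (SE 0.09, adjusted p = 0.0949), both close to the values with DMSO. DESeq2 called these 2. With all replicates as labelled, the changes were 0.24 for Map1lc3b and -0.11 for Ulk1, and neither was called. With the replicate number as a block 6 were called, Map1lc3b (0.39, adjusted p = 0.00252), Sqstm1 (0.21, adjusted p = 0.019), Gabarapl1 (0.21, adjusted p = 0.018), Atg7 (0.20, adjusted p = 0.0251) and Nbr1 (0.17, adjusted p = 0.0396) higher and Ulk1 (-0.36, adjusted p = 0.00327) lower. The same fit called 17.3% of all genes higher and 15.5% lower. Translational efficiency of the 10 genes was not called between the genotypes by edgeR with DMSO, beside 0% of all genes called, or with torin 1, beside 0.111%. With torin 1, 0 of the 10 had an unadjusted p under 0.05, beside 468 of 9901 genes. With DMSO, 1 of the 10 did, beside 399 of 10386 genes. That 1 gene was Wipi2, whose log2 ratio of footprints to mRNA was -0.78, -0.86 and -0.66 in Ctu1 iKO and -1.24, -1.21 and -1.16 in control with DMSO. The difference was 0.44 (SE 0.12, unadjusted p = 0.0027, adjusted p = 0.758 by edgeR), and DESeq2 called it.

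The wider pathway was read from lists of 66 further autophagy genes, of which 63 were listed and tested. These lists, too, were chosen with earlier results of these data known. With torin 1 in control cells, footprints of 7 were called higher and of 1 lower, beside 2.91% of all genes called higher and 4.33% lower, and their median log2 change was 0.17. The largest changes were in Atg16l1, which carries the conjugation enzyme to the membrane (-1.04, SE 0.17, adjusted p = 0.000894), Atg14, which directs the lipid kinase complex to autophagosomes (0.99, SE 0.23, adjusted p = 0.0161), Foxo3, a transcription factor of autophagy genes (0.89, SE 0.15, adjusted p = 0.00109) and Atg13, a partner of ULK1 (0.71, SE 0.14, adjusted p = 0.00471). In Ctu1 iKO cells, 9 were higher and 1 lower, beside 3.48% and 4.52% of all genes, led by Vps18 of the lysosomal tethering complexes (1.03), Atg14 (1.03), Zfyve1 (0.92) and Atg16l1 (-0.86). By role, the footprints called higher in control were those of 2 of 3 partners of ULK1, 1 of 7 genes of the lipid kinase complex, 1 of 15 further receptors, 1 of 13 genes of fusion with the lysosome and 2 of 7 transcriptional regulators, and 0 of 9 genes that act on the lipid mark or supply membrane and 0 of 2 further ATG8 genes. Of the 7 further conjugation genes, 0 were higher and 1 (Atg16l1) was lower. In Ctu1 iKO, those called higher were 3 of 3 partners of ULK1, 1 of 7 genes of the lipid kinase complex, 1 of 9 genes that act on the lipid mark or supply membrane, 2 of 13 fusion genes, 2 of 7 transcriptional regulators, 0 of 15 receptors, 0 of 2 ATG8 genes and 0 of 7 conjugation genes, of which Atg16l1 was lower.

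In mRNA, torin 1 was followed by 12 higher and 1 lower of the 63 in control, beside 5.69% and 7.4% of all genes, and by 10 higher and 1 lower in Ctu1 iKO, beside 3.73% and 4.52%. In control the largest changes were those of Atg14 (1.19), Foxo3 (0.84), Rb1cc1, another partner of ULK1 (0.83), and Atg16l1 (-0.81), and in Ctu1 iKO those of Atg14 (1.25), Foxo3 (0.98), Zfyve1 (0.89) and Atg16l1 (-0.89). Atg16l1 and Atg5, whose products act in 1 complex, both had negative mRNA changes with torin 1 in both genotypes, of which that of Atg5 in Ctu1 iKO did not pass. In contrast, Atg12, the other partner in that complex, was called higher in control (0.39, adjusted p = 0.0332) and in Ctu1 iKO (0.44, adjusted p = 0.0493). Atg12 was named after its values were seen.

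Between the genotypes with DMSO, 1 of the 63 was called higher in footprints, beside 1.63% of all genes, and 2 in mRNA, beside 3.32%. With torin 1, 5 were higher in footprints, beside 2.23%, and 1 in mRNA, beside 1.31% of all genes called in either direction. The ATG8 gene Gabarap was the one further gene called in both assays and with both treatments. Its footprints were at 84.6, 88.5, 78.6, 112.5 and 98.3 CPM in Ctu1 iKO and at 51.6 to 70.8 in control with DMSO, without overlap, as for 2.34% of all genes (log2 change 0.61, SE 0.12, adjusted p = 0.017), and its mRNA was at 122.9, 117.5 and 130.8 against 87.9, 78.6 and 71.5 CPM (0.64, SE 0.09, adjusted p = 0.0174). With torin 1 the changes were 0.44 (SE 0.10, adjusted p = 0.0201) in footprints and 0.62 (SE 0.09, adjusted p = 0.0352) in mRNA. With torin 1 against DMSO, Gabarap footprints had log2 changes of 0.07 in control and -0.10 in Ctu1 iKO, neither of which passed. Footprints of Zfyve1 (0.91), Epg5 (0.70), Vps18 (0.57) and Flcn (0.48) were also called higher in Ctu1 iKO with torin 1, and mRNA of Ncoa4 (0.29) with DMSO. Map1lc3a, the close relative of Map1lc3b, was called in no comparison and had log2 changes between genotypes of 0.17 and 0.24 in footprints and of 0.34 and 0.39 in mRNA.

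Likeness between genes was described by Pearson's r of log2 CPM over the 23 footprint libraries among 8856 genes, where the points share libraries and groups. The genes most like Sqstm1 were Klf4 (0.949), Ndrg1 (0.942) and Gabarapl1 (0.938). Those most like Map1lc3b were Cdkn2a (0.946), Cavin2 (0.925) and Cav1 (0.924), and Sqstm1 came at rank 398 (0.700). Those most like Ulk1 were Pcdh17 (0.842), Rnf103 (0.841) and Col8a1 (0.831). The r with Sqstm1 was 0.668 for Nbr1, 0.643 for Wipi2, 0.580 for Becn1, 0.549 for Ulk1, 0.489 for Gabarapl2, -0.251 for Atg5 and -0.408 for Atg7.

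Promoter windows from 250 bases before to 50 bases after the start of transcription were available for 9 of the 10 genes from RefSeq (GRCm38.p6) and were searched on both strands. The RefSeq starts do not always fall on the first base of the gene spans given above. Those of Sqstm1, Ulk1, Gabarapl1 and Map1lc3b lie 7, 16, 32 and 77 bases inside the span. Nbr1 has a pair of starts, 1 of them 505 bases inside. Those of Wipi2 and Atg7 lie 1886 and 27999 bases inside, so that these windows need not be those of the span's own start. The E-box CACGTG, the core of the element bound by the lysosomal regulator TFEB, was found in the windows of 2 genes, and 12.3% of 8287 genes with a window had it. Both are shown with the motif in capitals, the distance being that from the start.
Atg5, -14, chr10:44268313-44268342, plus strand: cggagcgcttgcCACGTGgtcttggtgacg
Atg7, -132, chr6:114670952-114670981, plus strand: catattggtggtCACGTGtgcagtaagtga
The longer CLEAR element, which contains the E-box, the FoxO motif GTAAACA and the motif TGATGNAA of C/EBP-ATF factors were in none of the 9 windows (0.88%, 3.11% and 2.65% of genes). The antioxidant response motif TGACNNNGC was in that of Map1lc3b and of 17.1% of genes. These are letters in a window and not sites shown to be bound.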

How the data were processed

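Ribosome footprints and mRNA were measured in the same samples of EPP2 cells. For footprints, the authors digested lysates with RNase I, isolated monosomes and trimmed reads with cutadapt 3.4, and fragments were processed with UMI-tools 1.1.1 and STAR 2.5.3a, as the submitters' processing notes name them with GRCm38 (mm10). The study's text names a human build for this step, while the symbols listed are mouse symbols. mRNA libraries were stranded, poly(A)-selected and paired-end. Both assays were deposited by the authors as raw read counts per gene, with no normalization. No entry's highest footprint count is below 100, so genes with few footprints in every library could not be tested. All mRNA counts are even (100% of values, 51.3% of footprint counts), as they would be if both mates of each fragment were counted, so that mRNA depths and counts given here may be 2 times the number of fragments. The 11 symbols on more than 1 entry were left out. The lowest count of the 10 genes in a footprint library was 20, for Atg5, so that the error of low genes includes counting error.

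Genes averaging 10 or more counts were tested in edgeR 4.0.16 (R 4.3.3; TMM, quasi-likelihood test, Benjamini-Hochberg over all genes tested, called at 0.05), with the libraries of the groups compared and no covariate. SE is the log2 change divided by the square root of F. CPM values are TMM-scaled over the 9857 shared symbols. Translational efficiency is the assay by group term of a model of both assays with TMM factors within each assay. The tests were checked on simulated data, with the same dispersion in every gene, no pairing of replicates and 2-fold changes in 200 well-counted genes. For torin 1 in control, 100% of these changes were recovered in footprints and in mRNA and 74% in translational efficiency. False calls made up 6.5%, 6.5% and 4.5% of the genes called. The changes of the 10 genes were smaller than 2-fold, so this check does not cover them. Alternatives were DESeq2 1.42.0, library totals alone, filterByExpr, no filter, a replicate block, subsets of replicates and leaving out single samples, and, chosen after seeing the data, a term for replicates 1 and 2 against later ones, mRNA replicates 1 to 4 and leaving out the shallowest footprint library or Ctu1 iKO with torin 1, replicate 3.

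Replicates were grouped and numbered by the labels. Nothing in the labels says that they are separate cultures, and the methods name fewer independent replicates than there are libraries. Same numbers paired samples where every pair of deviations from group means correlated above 0.1. This held for footprints of torin 1 in control (r between 0.46 and 0.66) and of Ctu1 iKO against control with torin 1 (0.34 to 0.58), not for footprints of torin 1 in Ctu1 iKO (-0.04 to 0.46) or of the genotypes with DMSO (-0.10 to 0.51), and for mRNA in all 4 comparisons (0.51 to 0.85). The 10 genes and the wider lists were chosen with earlier results of these data known. All 10 genes were named, and of the wider lists the 4 called genes with the largest change in each comparison, with Gabarap and Map1lc3a always. Codons were counted in 1 GENCODE M21 transcript per gene. The 10-codon stretch of Sqstm1 is not reported here. Python 3.11.15 with pandas 2.3.3 was used for tables and matplotlib 3.10.9 for the figures.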

Additional observations from a re-analysis of the deposited data

Results flagged for a closer look

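Among 40 groups of at least 4 footprint libraries, 1 library stood apart from its group by Dixon's test in 3 groups, and about 5% of groups are expected to be marked by chance. Sqstm1 footprints were at 294 CPM in control with DMSO, replicate 4, below the others (gap of 0.666 of the range), and at 672 CPM in control with torin 1, replicate 3, above the others (0.724). Gabarapl1 footprints were at 70.4 CPM in Ctu1 iKO with DMSO, replicate 2, above the others (0.730).

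The mRNA libraries labelled Ctu1 iKO with DMSO, replicates 4 and 5, were not among the replicates compared, and their profiles were nearest to that of Ctu1 iKO with torin 1. They were set beside the 6 control libraries with DMSO and replicates 1 to 3 of Ctu1 iKO with DMSO, and the genes named here exceeded the highest of those by over 1.2 times. Sqstm1 was at 1140 and 1030 CPM against at most 574, Nbr1 at 388 and 391 against at most 293, Map1lc3b at 158 and 148 against at most 115, and Gabarapl1 at 109 and 106 against at most 74.5. Atg7 was at 77.1 CPM in replicate 4 against at most 60.1. In the footprint libraries with the same labels, none of these genes stood above all of replicates 1 to 3, with Sqstm1 at 435.7 and 419.1 CPM. Map1lc3b footprints were lower there, at 106.6 and 110.3 CPM beside 132.7 to 147.0 in replicates 1 to 3. The other 4 mRNA libraries nearest to another group were control with torin 1, replicates 5 and 6 (nearest to Ctu1 iKO with DMSO), and Ctu1 iKO with torin 1, replicates 5 and 6 (nearest to control with DMSO), and all 6 enter the values given with all replicates as labelled. Whether labels were exchanged was not tested.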

How the results depend on the processing

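Over 106 alternative fits and 91 fits without 1 sample, no call among the 10 genes turned its direction. The counts of genes called, which are 3, 3, 2, 1 and 0 for footprints (torin 1 in control, torin 1 in Ctu1 iKO, the genotypes with DMSO, the genotypes with torin 1, interaction) and 5, 4, 2, 0 and 0 for mRNA, moved as follows. With the replicate block they were 6, 5, 2, 4 and 0 for footprints and 6, 6, 4, 6 and 0 for mRNA, and the block changed no count of translational efficiency. Ulk1 was among the 5 for footprints of torin 1 in Ctu1 iKO (0.62, adjusted p = 0.0298). Over all genes, the block raised the calls for footprints of torin 1 in control from 714 to 2019 and for mRNA of torin 1 in control from 1259 to 4206. For footprints of torin 1 in Ctu1 iKO and of the genotypes with DMSO, where the numbers did not pair the samples, 2 of 5 and 3 of 5 numbers correlated best with their own. With a term for replicates 1 and 2 against later ones, footprints gave 5, 5, 3, 4 and 0 and mRNA 5, 6, 4, 2 and 0. Calls over all genes rose with that term as well. For footprints they went from 714, 788, 277, 479 and 63 to 1218, 1368, 737, 914 and 121. For mRNA of torin 1 in control they went from 1259 to 3018. Within replicates 1 and 2, footprints gave 0 in all 5 comparisons, and within replicates 3 to 6 they gave 2, 3, 1, 1 and 0. Calls over all genes were 134, 144, 0, 0 and 1 within replicates 1 and 2. Within replicates 3 to 6 they were 647, 830, 184, 638 and 64. DESeq2 gave 4, 4, 3, 3 and 0 for footprints, 5, 6, 4, 2 and 0 for mRNA, and 1 (Wipi2) for translational efficiency of the genotypes with DMSO. Of all genes it called 1068, 1155, 700, 842 and 107 for footprints and 1963 for mRNA of torin 1 in control. Library totals alone gave 4, 5, 3, 3 and 0 for footprints and 5, 4, 1, 0 and 0 for mRNA. Of all genes they called 929, 897, 298, 483 and 64 for footprints and 1336 for mRNA of torin 1 in control. Both filters left all counts of the 10 genes as they were. With all replicates as labelled, mRNA gave 3 (beside 916 of all genes), 0, 4 and 0, and replicates 1 to 4 gave 2 for mRNA of the genotypes with torin 1. Leaving out 1 sample gave 3 to 4 for footprints of torin 1 in Ctu1 iKO, 0 to 2 for footprints of the genotypes with DMSO (0 without control replicate 3, 4, 5 or 6 or Ctu1 iKO replicate 2 or 3), 0 to 1 for footprints of the genotypes with torin 1 (only Ctu1 iKO replicates 1 and 3 were left out, chosen after seeing the data, with 0 without replicate 1), 3 to 5 for mRNA of torin 1 in control, 1 to 5 for mRNA of torin 1 in Ctu1 iKO and 0 to 0 for mRNA of the genotypes with DMSO. The mRNA count of torin 1 in control fell to 3 without control DMSO replicate 2 or torin 1 replicate 1 or 2, and that in Ctu1 iKO fell to 1 without DMSO replicate 1 or 2 or torin 1 replicate 2 and to 2 without DMSO replicate 3. Fits with fewer samples have fewer degrees of freedom, and other causes were not tested. Footprints of torin 1 in control, with 6 libraries a group, were not refitted without single samples. The lowest counts of a footprint library were 20 for Atg5, 130 for Gabarapl2 and 154 for Ulk1.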
